A study of Homo sapiens with 6 samples.

Results

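The genes described here encode the ESCRT machinery and the HOPS complex, which sort and deliver membrane proteins along the route to the lysosome. They are 32 of the 78304 genes in the deposited table, chosen by symbol, and each symbol matched exactly 1 row. They comprise 3 ESCRT-0, 5 ESCRT-I, 3 ESCRT-II and 11 ESCRT-III genes, 2 VPS4 ATPases, 2 ESCRT adaptors and 6 HOPS subunits. Messenger RNA was sequenced after poly(A) selection from Huh7 cells, an established human hepatocellular carcinoma line labelled as wild type. Cells grown for 24 h after seeding were treated for a further 24 h with 16'-DEC (3 libraries) or with DMSO, the vehicle (3 libraries). The compound carries only this code name in the sources used, and no dose is stated. The study asked how 16'-DEC acts on liver cancer cells, and its title concerns autophagy, a pathway that ends in fusion with the lysosome.

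ESCRT complexes act in sequence on endosomes. ESCRT-0, ESCRT-I and ESCRT-II gather ubiquitinated cargo, ESCRT-III polymerises into filaments that pinch vesicles into the endosome lumen, and the VPS4 ATPases take the filaments apart. The same filaments close autophagosomes, reseal the nuclear envelope and cut the bridge between dividing cells. HOPS tethers late endosomes and autophagosomes to lysosomes and prepares the SNARE proteins that fuse them, and its core is shared with the early endosomal tether CORVET.

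Values are TPM, abundances corrected for transcript length and scaled to a fixed sum per library, so they are relative and the sequencing depth is unknown. Between 13131 and 13459 genes reached 1 TPM in the 16'-DEC libraries and between 14936 and 15118 in the DMSO libraries. All 11 liver and hepatoma markers examined were present, with summed levels of 13023 to 13519 TPM with 16'-DEC and 15469 to 16125 TPM in DMSO. Single markers went both ways. AFP had a mean of 965 TPM with 16'-DEC and 2721 TPM in DMSO, APOB 196 and 627 TPM, and FGB 148 and 359 TPM. APOA1 had 1203 TPM with 16'-DEC and 729 TPM in DMSO, and SERPINA1 2921 and 2073 TPM. The leukocyte list summed to 872 to 992 TPM with 16'-DEC and 1652 to 1825 TPM in DMSO. It was carried by LYZ (mean 874 TPM with 16'-DEC and 1719 TPM in DMSO) and CD68 (40.7 TPM with 16'-DEC and 16.8 TPM in DMSO), while CD3E was at 0 in every library and PTPRC did not exceed 1.17 TPM. Fibroblast markers summed to 0.71 to 2.26 TPM with 16'-DEC and 1.59 to 2.53 TPM in DMSO, and endothelial markers to at most 0.844 TPM with 16'-DEC and 0.595 TPM in DMSO. The part of these differences in the results below was not tested. One library stood apart within its group: 16'-DEC replicate 3 was the lowest of its group for 57.9% of tested genes and for 19 of the 32 genes described here, and limma's array weights gave it 0.36. DMSO replicate 1 was the lowest of its group for 39.4% of tested genes and for 17 of the 32, with an array weight of 0.76. Nothing in the labels tells whether replicates were grown as separate cultures, so each p-value reflects the spread among these libraries alone, which may be technical.

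All 32 genes had a mean of at least 1 TPM and entered the test, limma on log2(TPM + 1) over 14275 genes, called at an adjusted p (Benjamini-Hochberg) under 0.05. With 16'-DEC, 17 of the 32 were higher, 10 were lower and 5 did not pass. This is 84.4% of the genes passing, against 71.5% of all tested genes. The share that was higher was 53.1%, against 22.7% of all tested genes, and the share that was lower was 31.3%, against 48.9%. The median change of the 32 genes was 0.30 on the log2 scale, and that of all tested genes was -0.31. In a bulk sample fewer cells of a type and less RNA per cell cannot be told apart, and neither can be seen in relative values.

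These directions depended on scaling. With median-of-ratios scaling the median of all tested genes was -0.014 and 5290 were higher and 5376 lower, in place of 3236 higher and 6974 lower in the deposited values. With quantile normalization the median was 0.11, with 5990 higher and 4748 lower. The 32 genes then gave 21 higher and 7 lower with median-of-ratios scaling (37.1% and 37.7% of all tested genes) and 20 higher and 8 lower with quantile normalization (42% and 33.3% of all tested genes). All 17 genes that were higher as deposited were also higher under both of these scalings. Both scalings moved the median change upward, and median-of-ratios factors were 0.825 to 0.923 for 16'-DEC and 1.12 to 1.15 for DMSO libraries. Genes already higher could thus hardly fail to stay higher, and this is not a separate check of them. Of the 10 lower genes, STAM2, VPS36, VPS37A, CHMP2B, CHMP5, VPS4B and VPS41 were lower under both scalings as well, CHMP3 was lower only with quantile normalization, and CHMP1B and PDCD6IP passed under neither. A stronger dependence, on the GC content of the transcripts, is described after the complexes.

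**Figure D1:**
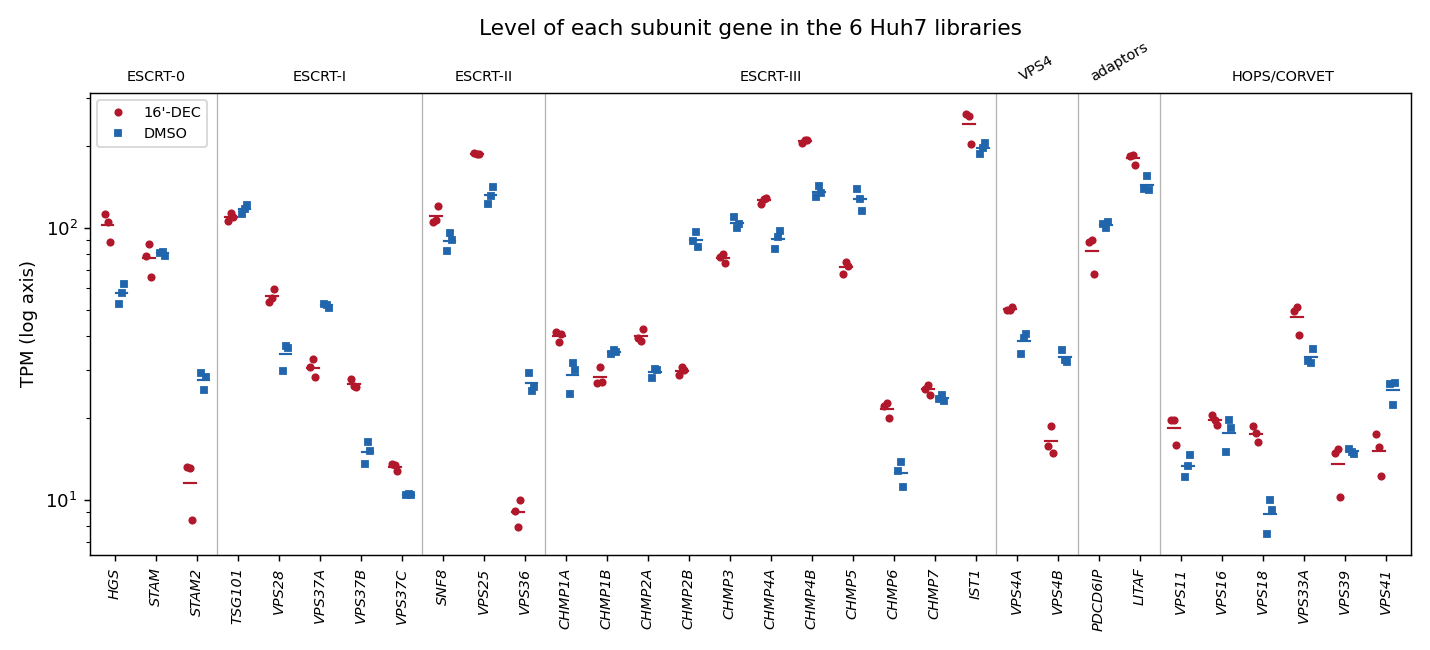
Level in TPM (log axis) of the 32 ESCRT and HOPS genes in each library, with 16'-DEC (circles, left of each pair) and DMSO (squares, right), grouped by complex, with lines at the group means. The 3 libraries of each group separate without overlap for 26 genes (81.3%, against 75.3% of all tested genes), and every complex holds genes that passed in each direction. The split of 17 higher and 10 lower (22.7% and 48.9% of all tested genes) depends on a trend with GC content. It becomes 26 higher and 0 lower when the trend is removed and libraries are re-centred (34.5% and 31.7% of all genes in that fit). With the trend removed and library means kept it becomes 9 higher and 8 lower (13.5% and 57.8%).

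All libraries of 1 group lay above all of the other for 26 of the 32 genes, or 81.3%, against 75.3% of all tested genes. The 16'-DEC libraries lay above for 16 genes (50%, against 24.3% of all tested genes) and below for 10 (31.3%, against 51% of all tested genes). Levels among the genes spanned more than an order of magnitude. The most abundant in both groups was IST1, with a mean of 242 TPM with 16'-DEC and 196 TPM in DMSO. The least abundant was VPS36 with 16'-DEC, at 9.02 TPM, and VPS18 in DMSO, at 8.86 TPM. A change of at least 1 on the log2 scale was seen downwards in 3 genes (9.38%, against 23.7% of all tested genes), CHMP2B, VPS36 and STAM2, and upwards in 0 (against 2.63%).

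Promoter sequence was available for 24 of the 32 genes, from RefSeq on GRCh38.p14. The 250 bases before the annotated start were searched on both strands for CACGTG, the E-box read by MYC and by TFEB and TFE3, and for TCACGTGA, the extended E-box that contains it and that TFEB-family factors bind at lysosomal genes. CACGTG was present in 6 of the 24 (25.0%), against 7.73% of 27305 genes with a promoter in the same table, and TCACGTGA in 3 (12.5%), against 1.04%. The window was also searched for TGACNNNGC, the core of the antioxidant response element, found in CHMP5 and VPS11 (8.33%, against 13.2% of all genes), and for GAANNTTC, a heat shock element core, found in 0 of the 24 (against 7.05%). A TGACNNNGC match can share letters with a CACGTG match. The E-boxes are shown because the 6 genes fall in all 3 classes of result described below: CHMP4A, VPS11 and VPS37B were higher with 16'-DEC as deposited, PDCD6IP and VPS36 were lower, and VPS16 did not pass. Each line gives 30 bases of the gene's strand, with the E-box in capitals, and a match is a description of letters, not of binding.
CHMP4A: ggtggcttgggTCACGTGAcaccggtggtc
PDCD6IP: ccgcgacacctTCACGTGAccgcggacagc
VPS11: gctggctcagcTCACGTGAcaaagctcccg
VPS16: cggcggcctcgcCACGTGacccggacgggc
VPS36: gccggtcggtagCACGTGgcgtggggcgct
VPS37B: cagggctggcgtCACGTGtcccccccgcgg

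The CHMP4A window lies at chr14:24213585-24213614 on the minus strand and the PDCD6IP window at chr3:33798513-33798542 on the plus strand. VPS11 has its window at chr11:119067772-119067801 on the plus strand, and a further CACGTG lies just upstream of it. The VPS16 window is at chr20:2840667-2840696 on the plus strand. Those of VPS36 and VPS37B are on the minus strand, at chr13:52450302-52450331 and chr12:122896146-122896175. In GENCODE 29 the windows of CHMP4A, PDCD6IP, VPS11 and VPS37B lie wholly in exons that include longer transcripts of the gene itself. In the VPS16 window 26 bases lie in an exon of the neighbouring gene PCED1A, and the VPS36 window holds 0 exonic bases.

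ESCRT-0 binds ubiquitinated cargo and the endosomal lipid PI3P. HGS (HRS), its lipid-binding subunit, rose, and STAM2, a ubiquitin-binding partner of HGS, fell as deposited but was higher after the re-centring GC adjustment given below, while the paralogue STAM did not pass. In the GC adjustment that keeps library means HGS (0.19, adjusted p = 0.139) and STAM2 (-0.026, adjusted p = 0.869) did not pass and STAM was higher (0.50, adjusted p = 0.0015). HGS, on chromosome 17 at 81683326 to 81703138 (GRCh38), had 113, 105 and 88.4 TPM with 16'-DEC and 52.5, 57.6 and 62.4 TPM in DMSO. Every 16'-DEC library was above every DMSO library, and the change was 0.81 ± 0.106 on the log2 scale (± SE, as for all changes below; limma, adjusted p = 0.000129). STAM2 had 13.2, 13.1 and 8.41 TPM with 16'-DEC, against 29.2, 25.2 and 28.3 TPM in DMSO. The 16'-DEC libraries were all lower, replicate 3 most so, and STAM2 fell by 1.21 ± 0.158 (adjusted p = 0.000129). STAM had 78.8, 86.9 and 65.8 TPM with 16'-DEC and 80.9, 81.7 and 78.9 TPM in DMSO. The groups overlapped, the change was -0.069 ± 0.102 (adjusted p = 0.561), and its sign turned without 16'-DEC replicate 3, to 0.039.

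ESCRT-I recognises cargo after ESCRT-0 and is assembled from TSG101, VPS28, 1 of several VPS37 proteins and further subunits. VPS28, VPS37B and VPS37C rose, VPS37A fell and TSG101 did not pass, but VPS37A was higher after both GC adjustments below, VPS37C was lower with library means kept, and TSG101 was higher with re-centring and lower with library means kept. VPS28 was higher with re-centring and did not pass with library means kept, and VPS37B was higher in both. TSG101, the ubiquitin-binding subunit that also recognises viral late domains, had 106, 113 and 109.7 TPM with 16'-DEC and 112, 117 and 121 TPM in DMSO. These ranges overlapped, with a change of -0.091 ± 0.0683 (adjusted p = 0.255). VPS28, which links ESCRT-I to ESCRT-II, had 53.5, 55.4 and 59.7 TPM with 16'-DEC and 29.8, 36.9 and 36.2 TPM in DMSO. All 16'-DEC libraries lay above, and the change was 0.70 ± 0.0988 (adjusted p = 0.000203).

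The VPS37 genes encode alternative ESCRT-I subunits, of which VPS37A is the form known from autophagosome closure, and 3 of them are among the 32 genes. VPS37A had 30.8, 32.8 and 28.2 TPM with 16'-DEC and 52.7, 52.2 and 50.7 TPM in DMSO. It fell by 0.74 ± 0.0803 (adjusted p = 3.76e-05) with no overlap of the groups. VPS37B had 27.8, 26.1 and 26.1 TPM with 16'-DEC and 13.5, 16.3 and 15.1 TPM in DMSO. All 3 16'-DEC libraries were higher, by 0.79 ± 0.091 (adjusted p = 5.47e-05). VPS37C had 13.5, 13.4 and 12.8 TPM with 16'-DEC and 10.4, 10.5 and 10.4 TPM in DMSO, a narrow spread in both groups and a change of 0.31 ± 0.0796 (adjusted p = 0.00633). The remaining paralogue VPS37D, not one of the 32 and named after its values were seen, had 3.03, 2.46 and 3.07 TPM with 16'-DEC and 1.80, 1.77 and 1.99 TPM in DMSO. VPS37D was higher in all 16'-DEC libraries, by 0.43 ± 0.121 (adjusted p = 0.0106), and passed in neither GC adjustment. The exons of VPS37A overlap those of CNOT7 on the opposite strand over 3.58% of their length. No strand use is stated, so reads of overlapping genes cannot be told apart.

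ESCRT-II bridges ESCRT-I and ESCRT-III. Of its 3 subunits VPS25 and SNF8 (VPS22) rose, and VPS36, whose GLUE domain binds ubiquitin and PI3P, fell more than any other gene here except CHMP2B, though after the GC adjustment that re-centres libraries it did not pass. With library means kept VPS36 was lower, and VPS25 and SNF8 did not pass. VPS36, on chromosome 13 at 52412602 to 52450628 of the minus strand, had 9.09, 7.96 and 10.0 TPM with 16'-DEC and 29.3, 25.0 and 26.0 TPM in DMSO. Its highest 16'-DEC library was well below its lowest DMSO library, and it fell by 1.47 ± 0.105 (adjusted p = 2.83e-06). VPS25, the subunit that recruits CHMP6, had 188, 186 and 187 TPM with 16'-DEC and 123, 131 and 141 TPM in DMSO. The groups did not overlap, and the 16'-DEC libraries were within 2 TPM of each other, with a change of 0.51 ± 0.0724 (adjusted p = 0.000228). SNF8 had 105, 107 and 121 TPM with 16'-DEC and 82.5, 95.6 and 90.2 TPM in DMSO. It was higher in all 16'-DEC libraries by 0.31 ± 0.0869 (adjusted p = 0.0112).

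ESCRT-III forms the constricting filaments. Of its 11 genes 6 rose (CHMP1A, CHMP2A, CHMP4A, CHMP4B, CHMP6 and IST1), 4 fell (CHMP1B, CHMP2B, CHMP3 and CHMP5) and CHMP7 did not pass, while CHMP1B, CHMP3 and CHMP5 were higher after the re-centring GC adjustment and CHMP1A and CHMP7 lower with library means kept. In the adjustment with library means kept IST1 and CHMP1B were higher, CHMP2B was lower, and CHMP2A, CHMP3, CHMP4A, CHMP4B, CHMP5 and CHMP6 did not pass. Of the CHMP4 genes, which encode the main filament protein, CHMP4A and CHMP4B were higher, as was CHMP6, which starts the filament from ESCRT-II. The further paralogue CHMP4C, not one of the 32 and named after its values were seen, had 18.1, 22.2 and 20.4 TPM with 16'-DEC and 19.7, 19.8 and 19.8 TPM in DMSO (change 0.027 ± 0.0918, adjusted p = 0.805), with overlapping groups. CHMP4B had 205, 210.2 and 211 TPM with 16'-DEC and 130.1, 142 and 134 TPM in DMSO. The groups were far apart relative to their spread, with a change of 0.62 ± 0.0665 (adjusted p = 3.61e-05). CHMP4A had 122, 128 and 129 TPM with 16'-DEC and 83.7, 92.3 and 97.3 TPM in DMSO, again without overlap, and a change of 0.47 ± 0.0773 (adjusted p = 0.000538). On the same strand AL096870.2 overlaps 68.8% of the exonic length of CHMP4A and AL136295.1 26.7%. They averaged 1.18 and 0.698 TPM over all libraries, and their part in the value of CHMP4A was not tested. CHMP6 had 22.0, 22.8 and 20.0 TPM with 16'-DEC and 12.8, 13.7 and 11.1 TPM in DMSO. All 3 treated libraries lay above, by 0.74 ± 0.1 (adjusted p = 0.000157).

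CHMP2B showed the largest fall among the 32 genes. It encodes a late filament subunit that carries VPS4-binding sequences and is mutated in a familial frontotemporal dementia, and it lies on chromosome 3 at 87227271 to 87255548. CHMP2B had 28.7, 30.9 and 29.98 TPM with 16'-DEC and 89.5, 96.6 and 84.8 TPM in DMSO. Each 16'-DEC library was far below each DMSO library, and CHMP2B fell by 1.56 ± 0.0782 (adjusted p = 4.09e-07). Its paralogue CHMP2A, the other subunit of this kind, had 39.4, 38.3 and 42.3 TPM with 16'-DEC and 27.9, 30.3 and 30.1 TPM in DMSO. CHMP2A was higher in all 16'-DEC libraries, by 0.43 ± 0.0785 (adjusted p = 0.00102).

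CHMP3, which caps the filament with CHMP2A, had 78.1, 80.4 and 74.3 TPM with 16'-DEC and 109, 100.1 and 103 TPM in DMSO. It fell by 0.42 ± 0.0716 (adjusted p = 0.000662). The readthrough gene RNF103-CHMP3 overlaps 10.8% of its exonic length on the same strand and averaged 0.323 TPM over the 6 libraries. CHMP5, which binds the VPS4 cofactor VTA1, had 67.6, 74.7 and 72.5 TPM with 16'-DEC and 139, 128 and 116 TPM in DMSO. The groups did not overlap, and CHMP5 fell by 0.82 ± 0.0857 (adjusted p = 3.09e-05). CHMP7, which acts at the nuclear envelope, had 25.6, 26.5 and 24.2 TPM with 16'-DEC and 23.5, 24.3 and 23.2 TPM in DMSO. These values overlapped, with a change of 0.10 ± 0.0767 (adjusted p = 0.262).

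CHMP1A, CHMP1B and IST1 act late and recruit VPS4 and other enzymes. CHMP1A had 41.2, 38.1 and 40.7 TPM with 16'-DEC and 24.4, 31.8 and 30.1 TPM in DMSO, and rose by 0.47 ± 0.105 (adjusted p = 0.00326). CHMP1B had 26.9, 30.8 and 27.0 TPM with 16'-DEC and 34.5, 35.5 and 35.1 TPM in DMSO. All treated libraries were lower, by a change of -0.30 ± 0.0818 (adjusted p = 0.0087). An antisense gene, CHMP1B-AS1, overlaps 18.1% of the exonic length of CHMP1B and had 23.8 ± 1.58 TPM with 16'-DEC and 22.5 ± 3.96 TPM in DMSO (SD, n = 3 each).

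IST1 had 263, 259 and 203 TPM with 16'-DEC and 186, 196 and 206 TPM in DMSO. Replicate 3 of 16'-DEC lay inside the DMSO range, so IST1 is the one gene that passed (change 0.29 ± 0.104, adjusted p = 0.0321) although its groups overlapped. It did not pass in the limma fit when DMSO replicate 1 was left out (change 0.25, adjusted p = 0.096), nor when DMSO replicate 2 was (0.29, adjusted p = 0.0694). The same held when 16'-DEC replicate 1 was left out (0.23, adjusted p = 0.114) and when replicate 2 of that group was (0.24, adjusted p = 0.112).

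The 2 VPS4 ATPases moved in opposite directions as deposited, though both were higher after the re-centring GC adjustment and neither passed with library means kept (VPS4A 0.033, adjusted p = 0.714, VPS4B -0.098, adjusted p = 0.297). VPS4A had 50.1, 50.1 and 51.4 TPM with 16'-DEC and 34.5, 39.3 and 40.8 TPM in DMSO. All 16'-DEC libraries were higher, by 0.40 ± 0.0838 (adjusted p = 0.00235). VPS4B had 15.8, 18.6 and 14.9 TPM with 16'-DEC and 35.6, 32.7 and 32.1 TPM in DMSO. Without overlap, VPS4B fell by 0.99 ± 0.0997 (adjusted p = 2.46e-05). Part of VPS4A is shared with other annotated genes: COG8 on the opposite strand overlaps 22% of its exonic length and AC026464.4 on the same strand 21%. AC026464.4 had 21.1 ± 3.65 TPM with 16'-DEC and 8.21 ± 1.59 TPM in DMSO (SD, n = 3 each) and was higher by 1.26 (adjusted p = 8.76e-05). COG8 had 19.3 ± 1.14 TPM with 16'-DEC and 19.5 ± 1.24 TPM in DMSO (SD, n = 3 each). How reads were divided among these genes is not given in the sources used here, and the part of AC026464.4 in the value of VPS4A was not tested.

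The adaptors PDCD6IP and LITAF also differed in direction as deposited. Both were higher after the GC adjustment with library means kept and after the re-centring one, in which every change is larger by the same amount. PDCD6IP (ALIX), which brings ESCRT-III to membranes by binding CHMP4, had 89.0, 90.2 and 67.9 TPM with 16'-DEC and 103, 99.7 and 105 TPM in DMSO. All 16'-DEC libraries were below the DMSO libraries, replicate 3 by the widest margin, and PDCD6IP fell by 0.32 ± 0.111 (adjusted p = 0.0263). It did not pass without DMSO replicate 1 (change -0.32, adjusted p = 0.0651) or DMSO replicate 3 (change -0.31, adjusted p = 0.0681). LITAF (SIMPLE), a late endosomal membrane protein that binds ESCRT subunits, had 184, 185 and 171 TPM with 16'-DEC and 138, 156 and 138 TPM in DMSO. LITAF was higher in all treated libraries, by 0.32 ± 0.076 (adjusted p = 0.00443).

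Of the 6 HOPS genes, VPS11, VPS18 and VPS33A rose, VPS41 fell, and VPS16 and VPS39 did not pass, while VPS41 was higher after the re-centring GC adjustment, and VPS16 and VPS39 were lower with library means kept. With library means kept VPS11 and VPS41 did not pass. VPS11, VPS16, VPS18 and VPS33A form the core shared with CORVET, and VPS39 and VPS41 are the subunits particular to HOPS. VPS18, a scaffold subunit on chromosome 15 at 40894430 to 40903975, had 18.6, 17.6 and 16.3 TPM with 16'-DEC and 7.502, 9.94 and 9.14 TPM in DMSO. It showed the largest rise of the 32 genes, 0.91 ± 0.113 (adjusted p = 8.7e-05), with no overlap. VPS33A, the subunit that binds SNARE proteins, had 49.5, 51.1 and 40.5 TPM with 16'-DEC and 32.3, 31.8 and 36.0 TPM in DMSO. Its 16'-DEC libraries were all higher, by 0.48 ± 0.105 (adjusted p = 0.00286). VPS11, a scaffold subunit, had 19.7, 19.6 and 15.96 TPM with 16'-DEC and 12.2, 13.3 and 14.6 TPM in DMSO, with a change of 0.44 ± 0.11 (adjusted p = 0.00631).

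VPS16, the partner of VPS33A, had 20.5, 19.7 and 18.8 TPM with 16'-DEC and 15.0, 19.6 and 18.4 TPM in DMSO. The groups overlapped (change 0.15 ± 0.108, adjusted p = 0.226). PTPRA on the same strand overlaps 16.6% of the exonic length of VPS16 and had 58.0 ± 10.7 TPM with 16'-DEC and 69.7 ± 3.96 TPM in DMSO (SD, n = 3 each). VPS41, which takes part in tethering to lysosomes, had 17.5, 15.7 and 12.2 TPM with 16'-DEC and 26.8, 22.3 and 26.9 TPM in DMSO. It was lower in all 16'-DEC libraries, with a change of -0.72 ± 0.136 (adjusted p = 0.00126). VPS39 had 14.9, 15.3 and 10.2 TPM with 16'-DEC and 15.4, 15.0 and 14.8 TPM in DMSO. The low mean with 16'-DEC came from replicate 3: the change was -0.17 ± 0.141 (adjusted p = 0.304) with it and 0.0032 without it.

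Leaving out 16'-DEC replicate 3 left the same 17 genes higher and the same 10 lower. The shares of all tested genes also moved little, to 24% higher and 46.8% lower from 22.7% and 48.9%. The summed level of all 32 genes was 2106 ± 84.6 TPM with 16'-DEC and 1948 ± 44.1 TPM in DMSO (SD, n = 3 each), a ratio of 1.08. By complex the ratio of summed levels, 16'-DEC over DMSO, was 1.15 for ESCRT-0, 1.03 for ESCRT-I, 1.24 for ESCRT-II, 1.04 for ESCRT-III, 0.933 for VPS4, 1.06 for the adaptors and 1.16 for HOPS. The sums of the ESCRT-I and ESCRT-III genes thus moved less than many of their members, since rises and falls within a complex offset each other. Only for ESCRT-II and VPS4 did the summed levels of the groups not overlap. The ESCRT-0 sums were 204.6, 205.3 and 162.61 TPM with 16'-DEC and 162.62, 164.6 and 169.5 TPM in DMSO. Those of HOPS were 140.7, 139.1 and 113.9 TPM with 16'-DEC and 109.1, 111.8 and 119.8 TPM in DMSO. Sums after GC adjustment were not computed.

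The balance of alternative subunits of one complex was read as a share within a library, which multiplying all values of that library by a factor does not alter. CHMP2B made up 42.8% ± 1.68 of the summed TPM of CHMP2A and CHMP2B with 16'-DEC, against 75.4% ± 1.36 in DMSO (SD, n = 3 each, as for all shares). VPS4B made up 24.5% ± 2.37 of the VPS4 pair with 16'-DEC and 46.8% ± 3.61 in DMSO. VPS37A took 43.4% ± 1.75 of the sum of VPS37A, VPS37B and VPS37C with 16'-DEC and 67.1% ± 1.45 in DMSO. CHMP1B, CHMP2B and VPS37A each made up less than the rest of their family's sum in every 16'-DEC library and more in every DMSO library. VPS37A was still the most abundant of the VPS37 genes summed in every 16'-DEC library. STAM2 took 12.9% ± 1.51 of the STAM pair with 16'-DEC and 25.5% ± 1.64 in DMSO. CHMP1B took 41.3% ± 2.92 of the CHMP1 pair with 16'-DEC and 55.0% ± 3.09 in DMSO, and CHMP4B took 62.3% ± 0.256 of the sum of CHMP4A and CHMP4B with 16'-DEC and 59.8% ± 1.65 in DMSO. With CHMP4C in the sum, an alternative chosen after seeing the data, CHMP4B took 58.7% ± 0.509 with 16'-DEC and 55.0% ± 1.45 in DMSO. With VPS37D in the VPS37 sum, chosen likewise, VPS37A took 41.7% ± 1.92 with 16'-DEC and 65.6% ± 1.43 in DMSO. In all 6 families as first given the libraries of the 2 groups did not overlap, and each exact permutation test (2-sided, n = 3 each) gave p = 0.1, adjusted p = 0.1 over the 6, which is the smallest value 3 against 3 libraries allow.

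**Figure D2:**
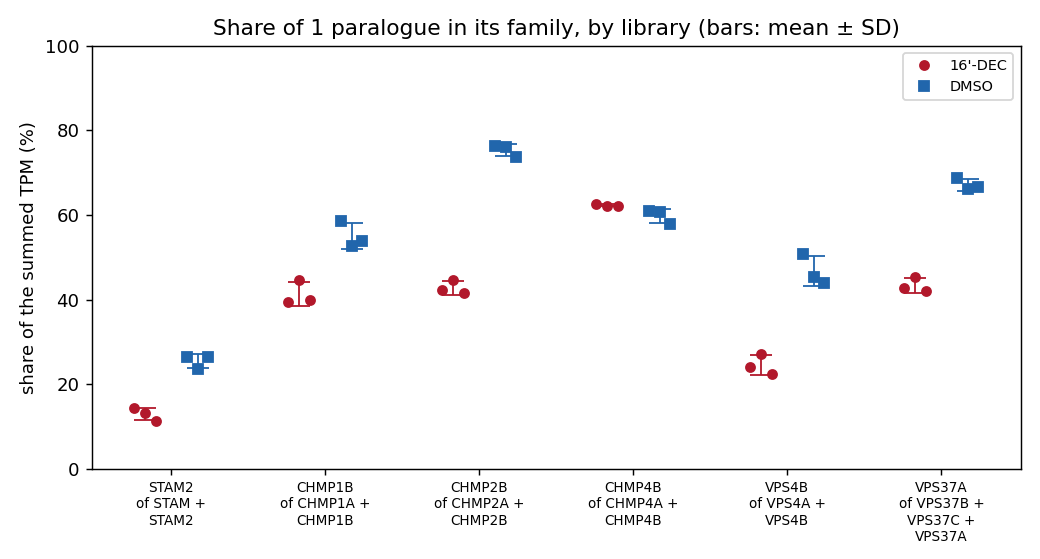
Share in percent of the summed TPM of a paralogue family taken by the named gene, for each 16'-DEC library (circles, left) and DMSO library (squares, right), with bars for mean ± SD. The shares of STAM2, CHMP1B, CHMP2B, VPS4B and VPS37A are lower with 16'-DEC and that of CHMP4B is slightly higher, although removal of the GC trend with re-centring turns the direction for CHMP1B and VPS37A and brings the groups to overlap for CHMP4B and VPS4B.

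The change of a gene went with the GC content of its transcript. Across the 32 genes Spearman's rho between the change and transcript GC content was 0.872, and across 13291 tested genes with a matched transcript it was 0.68. These are correlations across genes in the same 6 libraries, so genes are not independent replicates. Deviations of single libraries from their group mean also went with GC content. Spearman's rho ranged from -0.546 (replicate 1) to 0.378 (replicate 2) in DMSO, and from -0.347 (replicate 2) to 0.183 (replicate 3) with 16'-DEC. The 17 higher genes had a median GC content of 54.5% (44.3% to 64.2%) and the 10 lower genes a median of 39.2% (35.4% to 44.1%). All 7 genes below 40% GC (CHMP2B, CHMP5, PDCD6IP, STAM2, VPS36, VPS37A and VPS4B) were lower with 16'-DEC, as were 93.4% of all tested genes in that range. All 6 genes of at least 60% GC (CHMP1A, CHMP6, HGS, VPS18, VPS28 and VPS37C) were higher, against 46.9% of all tested genes there. Between 50% and 60% GC, 8 of 11 were higher and 0 lower, against 39.8% and 22.2% of tested genes. Between 40% and 50% GC the 8 genes divided evenly, with 3 higher, 3 lower and 2 not passing, against 10.2% higher and 66.4% lower among tested genes.

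**Figure D3:**
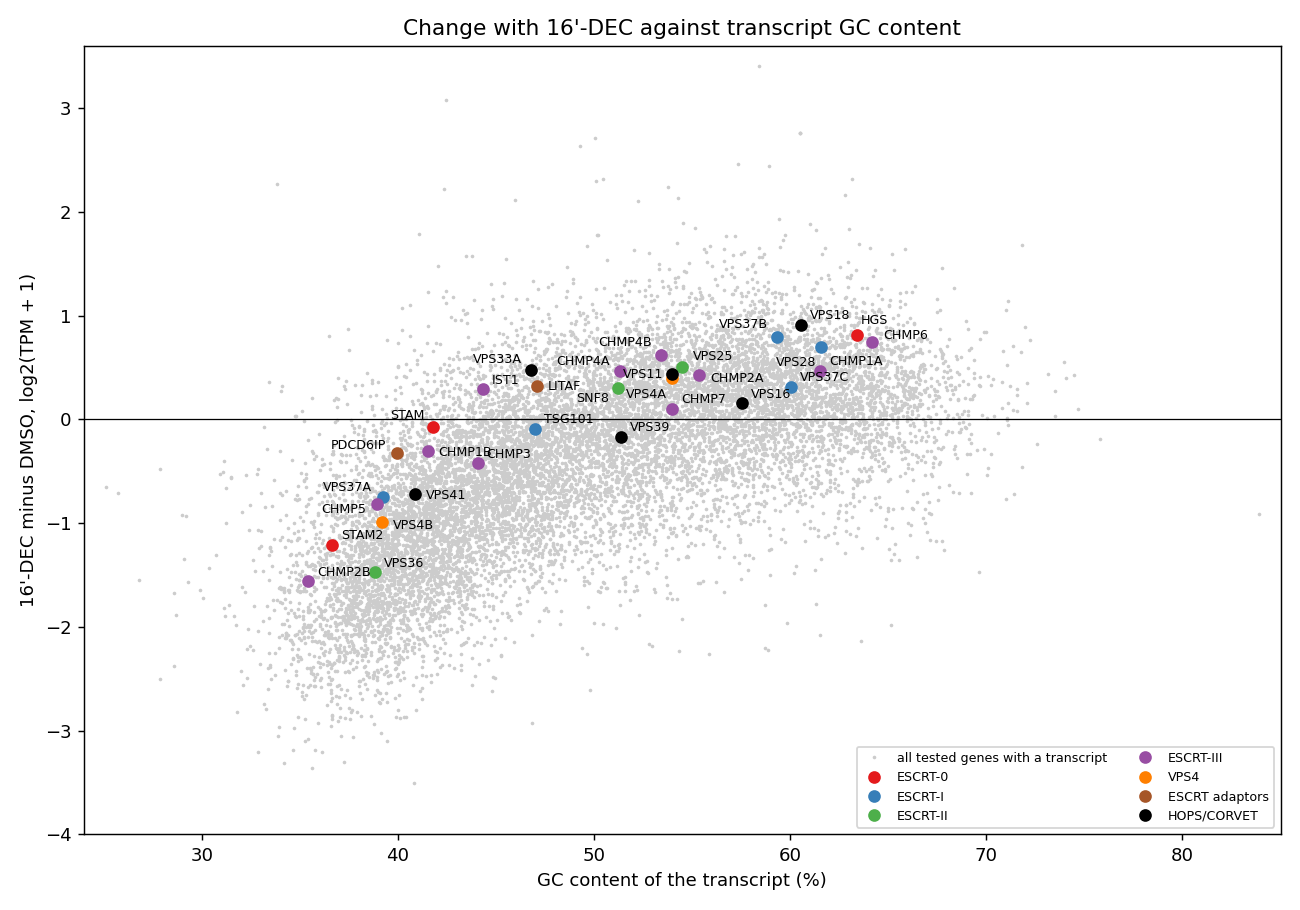
Change with 16'-DEC minus DMSO in log2(TPM + 1) (y axis) against the GC content of the transcript in percent (x axis) for all tested genes with a matched transcript (grey) and the 32 ESCRT and HOPS genes (coloured by complex). The genes of low GC content, led by CHMP2B, STAM2 and VPS36, lie below 0 and those of high GC content, such as VPS18 and HGS, above it.

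When a smooth trend on GC content and length was removed from each library, 26 of the 32 genes were higher with 16'-DEC, 0 were lower and 6 did not pass. Among all genes in that fit 34.5% were higher and 31.7% lower. Of the 10 genes that were lower as deposited, 8 (STAM2, VPS37A, CHMP1B, CHMP3, CHMP5, VPS4B, PDCD6IP and VPS41) were higher after the adjustment, while CHMP2B (-0.072) and VPS36 (-0.11) did not pass. The largest adjusted changes were those of IST1 (1.00), PDCD6IP (0.96), VPS33A (0.91) and STAM (0.88). This adjustment also sets the mean of every library to the same value. With the library means kept, an alternative chosen after seeing the data, 9 genes were higher, 8 lower and 15 did not pass, against 13.5% and 57.8% of all genes in that fit. CHMP2B (-0.46) and VPS36 (-0.49) were then the only genes of the 10 that were lower again, and VPS37B (0.18), IST1 (0.62), LITAF (0.21), VPS18 (0.35) and VPS33A (0.52) were higher in all 3 fits. The 2 adjustments differ only by a constant for each library: keeping the means lowers every change equally, with an all-gene median of -0.37 in place of 0.020. A change above 0 with means kept is thus bound to be above 0 with re-centring. Likewise a change below 0 with re-centring is bound to be below 0 with means kept. Calls are not strictly bound, since the spread within groups can also shift. Agreement between the 2 is therefore not a separate check. The source of the trend with GC content was not tested.

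Shares computed after the adjustment that re-centres libraries lay closer together in the 2 groups. The difference, 16'-DEC minus DMSO, was -5.54 points for CHMP2B, against -32.6 points as deposited. It was -5.36 points for STAM2, against -12.6. For VPS4B it was -1.98 points, against -22.2, and the libraries of the groups then overlapped (exact permutation p = 0.5, n = 3 each). For CHMP1B it was 9.31 points, against -13.7, and for VPS37A 3.55 points, against -23.7, so both turned direction. For CHMP4B it was 0.795 points, against 2.49, also with overlapping groups (exact permutation p = 0.8, n = 3 each). The other 4 families did not overlap after the adjustment (exact permutation p = 0.1 each, n = 3 each).

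**Figure D4:**
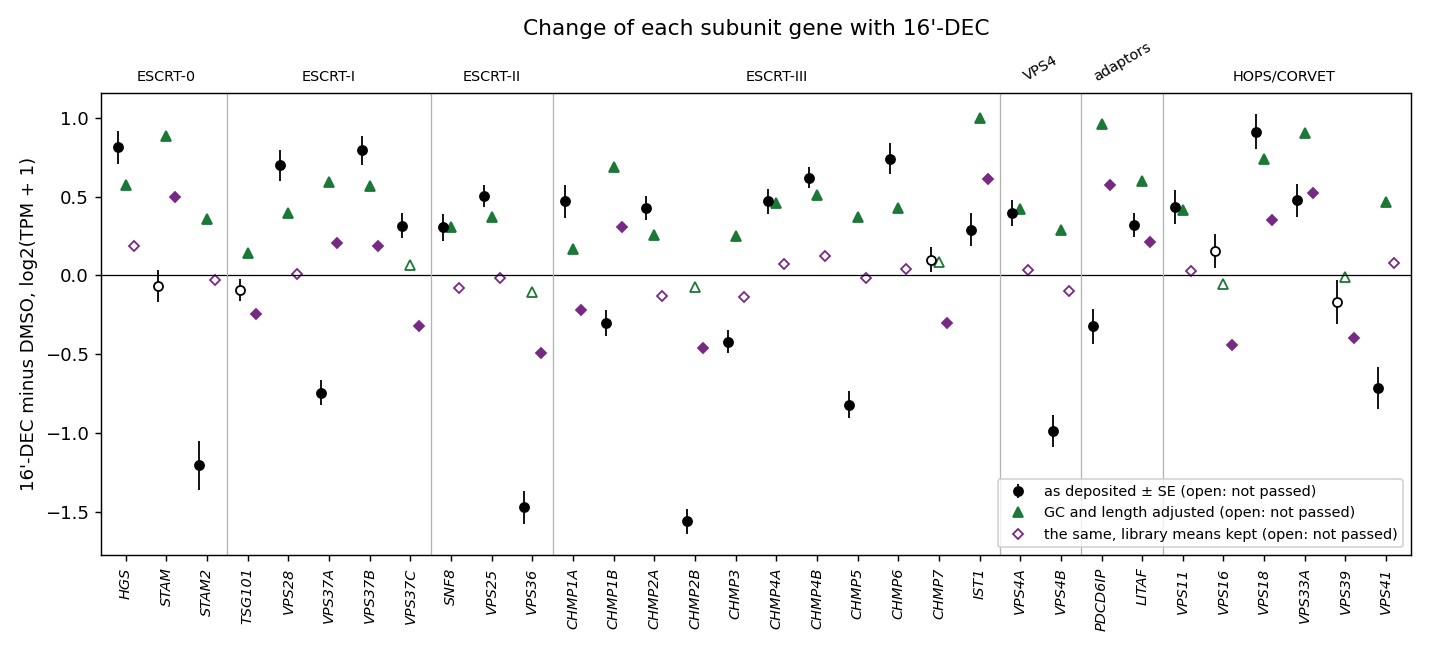
Change with 16'-DEC minus DMSO in log2(TPM + 1) for each of the 32 genes as deposited (circles, ± SE), after GC and length adjustment (triangles) and after the same adjustment with library means kept (diamonds), with open symbols for changes that did not pass. CHMP2B and VPS36, the 2 lowest as deposited, lie near or below 0 in all 3, and VPS18, VPS33A, IST1, LITAF and VPS37B lie above 0 in all 3. The diamonds lie below the triangles by the same amount for every gene.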

How the data were processed

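The authors deposited 1 table of TPM values for 6 poly(A) RNA-seq libraries, grouped by their titles. Tools listed in the submitters' processing notes are HISAT2 2.0.1, cutadapt 1.9.1, DESeq2 and HTSeq 0.6.1, with GRCh38 as build and no roles stated. The sources used here do not give the gene lengths behind TPM or the use of strand. Genes averaging at least 1 TPM were tested on log2 of the deposited TPM + 1 with limma 3.58.1 in R 4.3.3 (eBayes with a mean trend, 2-sided, Benjamini-Hochberg over all tested genes, threshold 0.05). The fit was also run on simulated data with independent noise and few changed genes. That simulation held no GC trend and no library-wide shift, so it does not test the calls made here. Members and lists were chosen with earlier results of these data known. All 32 members are named. In each role of the wider list the text names the 2 genes of smallest adjusted p in each direction. GC content and length came from 1 GENCODE 29 transcript per gene, and the adjustment removed natural splines (5 degrees of freedom) of each library's deviations. Shares used an exact permutation test. Alternatives were pseudocounts of 0.1 and 5, other filters, scalings, array weights, a stricter threshold (0.01), a replicate block and the omission of each library in turn. Promoter sequences are RefSeq's for GRCh38.p14. Python 3.11.15 and matplotlib 3.10.9 drew the figures.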

Additional observations from a re-analysis of the deposited data

How the results depend on the processing

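TPM are relative and carry no depth, so counting error is unknown, and log2(TPM + 1) understates changes of low genes. As a count, 3236 genes were higher and 6974 lower as deposited. Higher calls numbered 5290 under median-of-ratios scaling, 5990 after quantile normalization and 1797 after GC and length adjustment with library means kept, and lower calls 4213 after GC and length adjustment. The 32 genes gave 26 higher and 0 lower after GC and length adjustment (81.3% and 0%, against 34.5% and 31.7% of all genes in that fit). They gave 9 higher with library means kept (28.1%, against 13.5%). The wider list gave 42 higher and 19 lower after GC and length adjustment (51.2% and 23.2%). It gave 24 lower with quantile normalization (29.3%, against 33.3% of all tested genes). The share differences of CHMP1B (9.31 points) and VPS37A (3.55 points) turned sign after GC and length adjustment. Single changes turned sign as follows, on the log2 scale. Under median-of-ratios scaling they were STAM 0.28, TSG101 0.26, CHMP1B 0.038, PDCD6IP 0.024 and VPS39 0.16. After quantile normalization they were STAM 0.16, TSG101 0.13, CHMP1B 0.036 and VPS39 0.30, and under array weights STAM 0.011. After GC and length adjustment they were STAM 0.88, STAM2 0.36, TSG101 0.14, VPS37A 0.59, CHMP1B 0.69, CHMP3 0.25, CHMP5 0.37, VPS4B 0.29, PDCD6IP 0.96, VPS16 -0.057, VPS41 0.46 and VAMP7 0.0025. With library means kept they were STAM 0.50, VPS37A 0.21, VPS37C -0.32, SNF8 -0.079, VPS25 -0.018, CHMP1A -0.22, CHMP1B 0.30, CHMP2A -0.13, CHMP7 -0.30, PDCD6IP 0.57, VPS16 -0.44, VPS41 0.078 and LEMD2 -0.15. The cause was not tested. Leaving out each library in turn gave 2773 to 3426 higher and 6670 to 6754 lower genes, 16 to 17 higher and 9 to 10 lower among the 32, and 24 to 30 higher and 38 to 41 lower in the wider list. Share differences ranged from -13.5 to -11.8 points for STAM2, -15.4 to -11.9 for CHMP1B, -33.6 to -32.0 for CHMP2B, 1.54 to 3.02 for CHMP4B, -23.6 to -20.2 for VPS4B and -24.7 to -22.9 for VPS37A. The change of STAM ranged from -0.16 to 0.039 and that of VPS39 from -0.27 to 0.0032, both turning sign without 16'-DEC replicate 3. Equal replicate numbers did not pair the libraries (correlations of deviations 0.094, -0.18 and -0.073), and with the replicate number as a block the 32 genes gave 17 higher and 10 lower. GC-adjusted shares, the sums with CHMP4C or VPS37D (3.75 points for CHMP4B, -23.9 for VPS37A) and the fit with library means kept were chosen after seeing the data.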

Other observations

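Of 83 further genes that work beside these complexes, 82 had a mean of at least 1 TPM (STAMBPL1 did not), and 26 were higher and 39 lower with 16'-DEC. These are 31.7% and 47.6%, against 22.7% and 48.9% of all tested genes. The counts were 38 and 28 under median-of-ratios scaling (46.3% and 34.1%, against 37.1% and 37.7% of all tested genes). They were 39 and 24 after quantile normalization (47.6% and 29.3%, against 42% and 33.3%). After the GC and length adjustment they were 42 and 19 (51.2% and 23.2%, against 34.5% and 31.7% of all genes in that fit). With library means kept they were 18 and 36 (22.0% and 43.9%, against 13.5% and 57.8%). Among 22 other ESCRT subunits and regulators, 9 were higher and 7 lower (40.9% and 31.8%). The counts were 10 and 5 (45.5% and 22.7%) after the GC adjustment that re-centres libraries. With library means kept they were 1 and 10 (4.55% and 45.5%). TOM1, a ubiquitin-binding endosomal adaptor, had 90.7, 86.3 and 82.2 TPM with 16'-DEC and 38.3, 46.0 and 46.8 TPM in DMSO (change 0.97 ± 0.0936 on the log2 scale, limma, adjusted p = 1.85e-05). The 16'-DEC libraries were all higher. LEMD2, an inner nuclear membrane protein that recruits CHMP7, was higher by 0.49 and turned to -0.15, not passing, after the adjustment with library means kept. Both lower genes of this group named by rule act in cytokinesis. MITD1, which binds ESCRT-III at the midbody, had 13.8, 14.3 and 14.6 TPM with 16'-DEC and 59.3, 59.3 and 57.6 TPM in DMSO (change -1.97 ± 0.072, adjusted p = 1.34e-07). CEP55, the midbody protein that recruits TSG101 and ALIX, had 6.28, 6.33 and 5.28 TPM with 16'-DEC and 24.1, 23.6 and 22.2 TPM in DMSO (change -1.81 ± 0.0954, adjusted p = 5.44e-07). Both were lower in every 16'-DEC library, and both were also lower after the re-centring GC adjustment (MITD1 -0.77, CEP55 -0.84). With library means kept, which lowers every change by the same amount, MITD1 was at -1.16 and CEP55 at -1.22.

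Among 22 genes of CORVET, CHEVI and HOPS partners 10 were higher and 10 lower (45.5% each, against 22.7% and 48.9% of all tested genes). After the re-centring adjustment they were 13 and 5 (59.1% and 22.7%, against 34.5% and 31.7% of all genes in that fit). With library means kept they were 8 and 9 (36.4% and 40.9%, against 13.5% and 57.8%). PLEKHM1, a RAB7 effector that binds HOPS, had 40.6 ± 6.55 TPM with 16'-DEC and 16.9 ± 1.23 TPM in DMSO (SD, n = 3 each). RILP, another RAB7 effector that binds HOPS, had 16.4 ± 0.445 TPM with 16'-DEC and 7.89 ± 1.05 TPM in DMSO. HOOK1, a microtubule adaptor, had 5.02 ± 0.743 TPM with 16'-DEC and 34.2 ± 0.896 TPM in DMSO, and RAB5A, the early endosomal GTPase, had 29.5 ± 1.76 TPM with 16'-DEC and 56.7 ± 1.71 TPM in DMSO. PLEKHM1, RILP and HOOK1 kept these directions and passed in both GC adjustments. RAB5A did not pass in the one that re-centres libraries and was lower with library means kept (-0.44). Of 14 SNARE genes and regulators 4 were higher and 6 lower as deposited (28.6% and 42.9%), near the shares of all tested genes. This turned to 10 higher and 2 lower (71.4% and 14.3%) after the re-centring adjustment and 6 and 4 (42.9% and 28.6%) with library means kept. VAMP8, a SNARE of autophagosome-lysosome fusion, had 443 ± 25.1 TPM with 16'-DEC and 182 ± 9.71 TPM in DMSO, a change of 1.27 as deposited and of 1.19 and 0.81 after the GC adjustments. YKT6, a further SNARE of that step, had 61.8 ± 2.76 TPM with 16'-DEC and 29.7 ± 2.58 TPM in DMSO. VAMP7 had 14.2 ± 0.705 TPM with 16'-DEC and 35.3 ± 0.831 TPM in DMSO, and STX6 had 7.99 ± 0.869 TPM with 16'-DEC and 15.6 ± 0.326 TPM in DMSO. After the re-centring GC adjustment VAMP7 did not pass, with a change of 0.0025, and STX6 was lower by a change of -0.15. Both were lower with library means kept (VAMP7 -0.38, STX6 -0.53).

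Of 16 genes of retromer, GARP and related complexes, which act in transport out of endosomes, 3 were higher and 9 lower as deposited. These are 18.8% and 56.3%, near the 22.7% and 48.9% of all tested genes. After the re-centring adjustment 6 were higher and 4 lower (37.5% and 25%, against 34.5% and 31.7% of all genes in that fit). With library means kept they were 2 and 9 (12.5% and 56.3%, against 13.5% and 57.8%). Of the GARP subunits, VPS51 (1.01) and VPS53 (0.58) were higher and VPS54 (-1.53) was lower, while VPS52, named after its values were seen, did not pass (0.045, adjusted p = 0.731). With library means kept VPS53 did not pass (0.22, adjusted p = 0.154) and VPS52 was lower (-0.33, adjusted p = 0.0142). The retromer subunit VPS26A had 52.8 ± 5.34 TPM with 16'-DEC and 161 ± 8.94 TPM in DMSO. VPS54 and VPS26A were also lower after both GC adjustments, while VPS29 and VPS35, further retromer subunits named after their values were seen, were lower as deposited (-0.58 and -0.54) and higher after the re-centring one (0.55 and 0.53). VPS29 was also higher with library means kept (0.17), where VPS35 did not pass (0.15). Of 8 genes of endosomal phosphoinositide metabolism and its readers, 7 were lower (87.5%, against 48.9% of all tested genes) and 0 higher (against 22.7%) as deposited. This became 3 and 3 (37.5% each) after the re-centring adjustment and 4 lower and 1 higher (50% and 12.5%) with library means kept. PIK3C3, FIG4 and MTMR2, named after their values were seen, were lower as deposited and higher after the re-centring adjustment. PIK3C3 was also higher with library means kept (0.71), where FIG4 (-0.15) and MTMR2 (-0.16) did not pass. EEA1, a PI3P-binding tether of early endosomes, had 5.87, 3.69 and 2.77 TPM with 16'-DEC and 29.6, 28.2 and 28.6 TPM in DMSO (change -2.59 ± 0.19, adjusted p = 3.33e-06), and WDFY1, a further PI3P-binding protein, was lower by a change of -1.64. EEA1 has a transcript GC content of 34.9%, and its change was -0.88 after GC adjustment and -1.27 with library means kept.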
